A study of Homo sapiens with 12 samples.

Results

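The genes described here are the Rel subunits of the transcription factor NF-kB and the inhibitors, co-regulators and feedback proteins that surround it. The 10 members are RELA, RELB, REL, NFKB1, NFKB2, NFKBIA, NFKBIZ, BCL3, TNFAIP3 and BIRC3, found by symbol among the 50868 Ensembl genes of the count table. The set was chosen by earlier results of the same libraries, since NFKBIZ had the steadiest rise in the overexpression, so the overexpression values of the members are given as a description with no test. The libraries come from 2 established human gastric cancer lines, MKN28 and MKN45, and fall into 4 groups of 3. MKN28 cells carried a lentivirus with an siRNA against ZNF165 (genotype given as ZNF165 knockdown) or a control lentivirus (genotype WT), and MKN45 cells carried a lentivirus for ZNF165 (genotype given as ZNF165 Overexpression) or a control lentivirus (genotype WT). ZNF165 belongs to the SCAN zinc-finger proteins and is best known as a cancer/testis antigen. For replicates 2 and 3 of the knockdown, the free-text field says ZNF166 and ZNF167 instead, and grouping went by genotype. Each arm rests on 1 cell line, knockdown was done in MKN28 only and overexpression in MKN45 only, and no label tells whether the 3 libraries of a group were grown apart, so p-values reflect only how these libraries vary, which may be technical.

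NF-kB acts as dimers of Rel family proteins that inhibitors of the IkB family hold in the cytoplasm until a kinase complex marks the inhibitor for destruction. RELA with the processed product of NFKB1 forms the dimer of the classical pathway, and RELB with the processed product of NFKB2 that of the alternative pathway. Freed dimers bind kappaB sites in DNA and switch on, among other genes, their own brakes, such as NFKBIA and TNFAIP3. In the gastric epithelium the pathway is known for its activation by Helicobacter pylori and by inflammatory cytokines.

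Library totals ranged from 12075813 to 19548445 counts. Before scaling between libraries, 3 counts correspond to 0.153 to 0.248 CPM (counts relative to the library total, scaled up), depending on the library. CPM below are also divided by scaling factors, 0.569 to 1.03 in the knockdown libraries and 1.26 to 1.38 in MKN28 controls for that comparison. There 3 counts thus stand higher in the knockdown libraries with the low factors. ZNF165 had 4.75, 3.95 and 2.51 CPM in the knockdown, against 10.8, 7.88 and 12.4 CPM in MKN28 controls, with a log2 fold change of −1.47 (SE 0.53, quasi-likelihood test in edgeR, adjusted p = 0.0459). It had 107, 96.6 and 107 CPM in the overexpression, against 8.71, 10.3 and 17.6 CPM in MKN45 controls (3.09, SE 0.31, adjusted p = 0.0109). The groups did not overlap, but the knockdown of ZNF165 passed in only 1 of the 6 fits that leave out a library, the one without knockdown replicate 1 (adjusted p = 0.0116, against 0.0604 to 0.173 in the other 5), and its overexpression missed the threshold without overexpression replicate 1 (adjusted p = 0.0662) or 2 (adjusted p = 0.0707). The knockdown of ZNF165 also missed it with no filter on low counts (adjusted p = 0.0703), with a replicate block (adjusted p = 0.0643) and with replicate 1 as the lone knockdown library (log2 fold change −1.09, adjusted p = 0.198). Replicate 1 of the knockdown stood apart from the other 2, and among MKN45 controls replicate 2 did, as seen in the members below. All 6 epithelial markers (EPCAM, CDH1, KRT8, KRT18, KRT19, CLDN4) were detected in every group, at a summed 15916 to 73668 CPM in the knockdown, 5853 to 6884 CPM in MKN28 controls, 3759 to 6326 CPM in the overexpression and 4290.0 to 9589 CPM in MKN45 controls. The keratins made up most of these sums, with KRT8 at 9732 to 46650 CPM in the knockdown and 2158 to 3079 CPM in MKN28 controls. The other 3 markers differed from one another: CDH1 had 106, 81.2 and 53.8 CPM in the knockdown, against 324, 417 and 288 CPM in MKN28 controls, EPCAM had 915, 204 and 235 CPM in the knockdown, against 501, 435 and 465 CPM in MKN28 controls, and CLDN4 had 4.08, 4312 and 2789 CPM in the knockdown, against 1.58, 4.46 and 2.02 CPM in MKN28 controls. The part of these shifts in the members' values was not tested. The 8 markers of leukocytes, endothelium and fibroblasts summed to 27.6 to 82.1 CPM in the knockdown, 84.0 to 101 CPM in MKN28 controls, 157 to 223 CPM in the overexpression and 103 to 142 CPM in MKN45 controls. Nearly all of each sum came from COL1A1 in MKN28 (26.3 to 80.9 CPM in the knockdown, 81.7 to 100.4 CPM in the controls) and from LYZ and COL1A1 in MKN45 (LYZ 135 to 204 CPM in the overexpression, 87.5 to 122 CPM in the controls), and the other 6 were at 1.26 CPM or less in every library. PTPRC, the pan-leukocyte marker, was at 0 in all MKN45 libraries and PECAM1, an endothelial marker, in the knockdown libraries and MKN45 controls, while CD3E and DCN were at 0 in MKN28 controls. In bulk samples fewer cells expressing a gene and less RNA per cell cannot be told apart.

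NF-kB genes are known for regulating themselves through kappaB sites, and promoter windows of NFKBIZ, REL, BIRC3 and NFKBIA are printed as examples, picked among the windows that hold a match to show where its letters lie. RefSeq windows of 300 bases (build GRCh38.p14, 250 bases before and 50 after a transcript start) were found for 9 of the 10 members (all but RELB), 14 windows in all. The kappaB consensus, a word of 10 letters searched on both strands, matched in 10 of these 14 windows (71.4%), against 3956 of all 35116 windows (11.3%). In GENCODE 29 on GRCh38 the genes lie at chr3:101827991-101861022 (NFKBIZ, ENSG00000144802, + strand), chr2:60881521-60931610 (REL, ENSG00000162924, + strand), chr11:102317450-102339403 (BIRC3, ENSG00000023445, + strand) and chr14:35401511-35404749 (NFKBIA, ENSG00000100906, - strand), and each of the 4 windows shown spans the annotated start. By symbol, 8 of 9 members had a match (88.9%), against 3619 of all 27305 symbols (13.3%). The exception was RELA, whose windows are not printed, and no match says only that these letters are not in this window. Counted from the transcript start, the match began at position −223 in the NFKBIZ window shown and at −81 in NFKBIA. REL held a pair of overlapping matches on opposite strands, from −47 and −46. BIRC3 held separate matches from −199 and −135. In the sequences, written 5′ to 3′ along the gene, capitals mark the letters of a match.
NFKBIZ, chr3:101827740-101828039, + strand: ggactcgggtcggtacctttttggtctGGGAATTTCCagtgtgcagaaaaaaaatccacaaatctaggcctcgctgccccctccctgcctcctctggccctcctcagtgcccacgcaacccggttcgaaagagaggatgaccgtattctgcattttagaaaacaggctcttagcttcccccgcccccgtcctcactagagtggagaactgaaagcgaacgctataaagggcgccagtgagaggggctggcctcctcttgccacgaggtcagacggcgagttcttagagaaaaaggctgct
REL, chr2:60881324-60881623, + strand: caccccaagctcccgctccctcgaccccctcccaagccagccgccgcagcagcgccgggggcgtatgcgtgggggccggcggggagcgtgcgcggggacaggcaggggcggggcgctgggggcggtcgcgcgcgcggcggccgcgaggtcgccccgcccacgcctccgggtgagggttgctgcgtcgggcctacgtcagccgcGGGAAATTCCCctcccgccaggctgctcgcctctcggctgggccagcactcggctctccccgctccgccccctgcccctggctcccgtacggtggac
BIRC3, chr11:102317234-102317533, + strand: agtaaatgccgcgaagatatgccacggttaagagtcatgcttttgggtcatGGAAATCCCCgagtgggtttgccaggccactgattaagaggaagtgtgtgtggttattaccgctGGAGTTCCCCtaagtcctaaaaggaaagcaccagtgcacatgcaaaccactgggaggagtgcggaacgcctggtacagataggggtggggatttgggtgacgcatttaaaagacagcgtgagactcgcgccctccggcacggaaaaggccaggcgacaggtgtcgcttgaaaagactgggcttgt
NFKBIA, chr14:35404700-35404999, - strand: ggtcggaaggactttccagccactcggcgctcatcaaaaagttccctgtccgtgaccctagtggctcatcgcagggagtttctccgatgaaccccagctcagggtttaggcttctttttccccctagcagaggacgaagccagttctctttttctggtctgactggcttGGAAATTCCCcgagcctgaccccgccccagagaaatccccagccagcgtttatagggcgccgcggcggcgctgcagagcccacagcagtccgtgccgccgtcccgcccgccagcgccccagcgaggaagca
A match is a description of the letters, and binding was not measured. The other windows with a match belong to NFKB1 (from −49), NFKB2, TNFAIP3 (from −67 and −55), BCL3 (from 3) and a downstream start of NFKBIZ (from −239).

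In the control cells the lines differed in the IkB genes BCL3, NFKBIZ and NFKBIA, in TNFAIP3 and, of the subunits, in REL. Of the 10 members, all of them tested, 1 was higher in MKN45 (21.4% of all 16088 genes tested were) and 4 were lower (20.4% of all genes), with 5 not past the threshold. BCL3, an IkB protein that acts in the nucleus with dimers of the NFKB1 and NFKB2 products, had 31.1, 58.1 and 38.7 CPM in MKN45 controls, against 12.2, 15.4 and 7.17 CPM in MKN28 controls (log2 fold change 1.88, SE 0.40, quasi-likelihood test in edgeR, adjusted p = 0.00258). TNFAIP3, the ubiquitin-editing enzyme A20 that shuts off signalling to the kinase complex, had 10.7, 13.2 and 10.7 CPM in MKN45 controls, against 55.2, 53.5 and 47.5 CPM in MKN28 controls (−2.18, SE 0.33, adjusted p = 0.000199). For both genes every library of one line lay on one side of every library of the other.

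NFKBIZ, an IkB protein of the nucleus that is induced as a primary response gene and helps to switch on secondary ones, had 0.880, 1.01 and 0.868 CPM in MKN45 controls, against 10.2, 4.83 and 4.67 CPM in MKN28 controls (log2 fold change −2.83, SE 0.49, quasi-likelihood test in edgeR, adjusted p = 0.000610). NFKBIA, the IkB alpha protein that holds dimers in the cytoplasm, had 26.5, 42.8 and 29.9 CPM in MKN45 controls, against 77.7, 159.7 and 57.6 CPM in MKN28 controls (−1.57, SE 0.41, adjusted p = 0.00894). REL, the c-Rel subunit best known from lymphocytes, had 9.52, 0.546 and 2.98 CPM in MKN45 controls, against 35.2, 17.5 and 41.4 CPM in MKN28 controls (−2.83, SE 0.73, adjusted p = 0.00805). Groups did not overlap for these 3 genes either, though REL varied widely among MKN45 controls, with 173, 7 and 48 counts. The other subunits had log2 fold changes of −0.04 (RELA), −0.35 (RELB), 0.01 (NFKB1) and −0.27 (NFKB2), none past the threshold (lowest adjusted p = 0.474 and highest 0.986, quasi-likelihood test in edgeR). BIRC3, the inhibitor of apoptosis cIAP2 and a ubiquitin ligase of the TNF receptor complex, had a log2 fold change of −1.26 (SE 0.53, adjusted p = 0.0746). ZNF165 had one of −0.11 (SE 0.39, adjusted p = 0.840). All 5 calls were also made in each of the 12 alternatives tried for this comparison, among them the one without MKN45 control replicate 2.

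**Figure D1:**
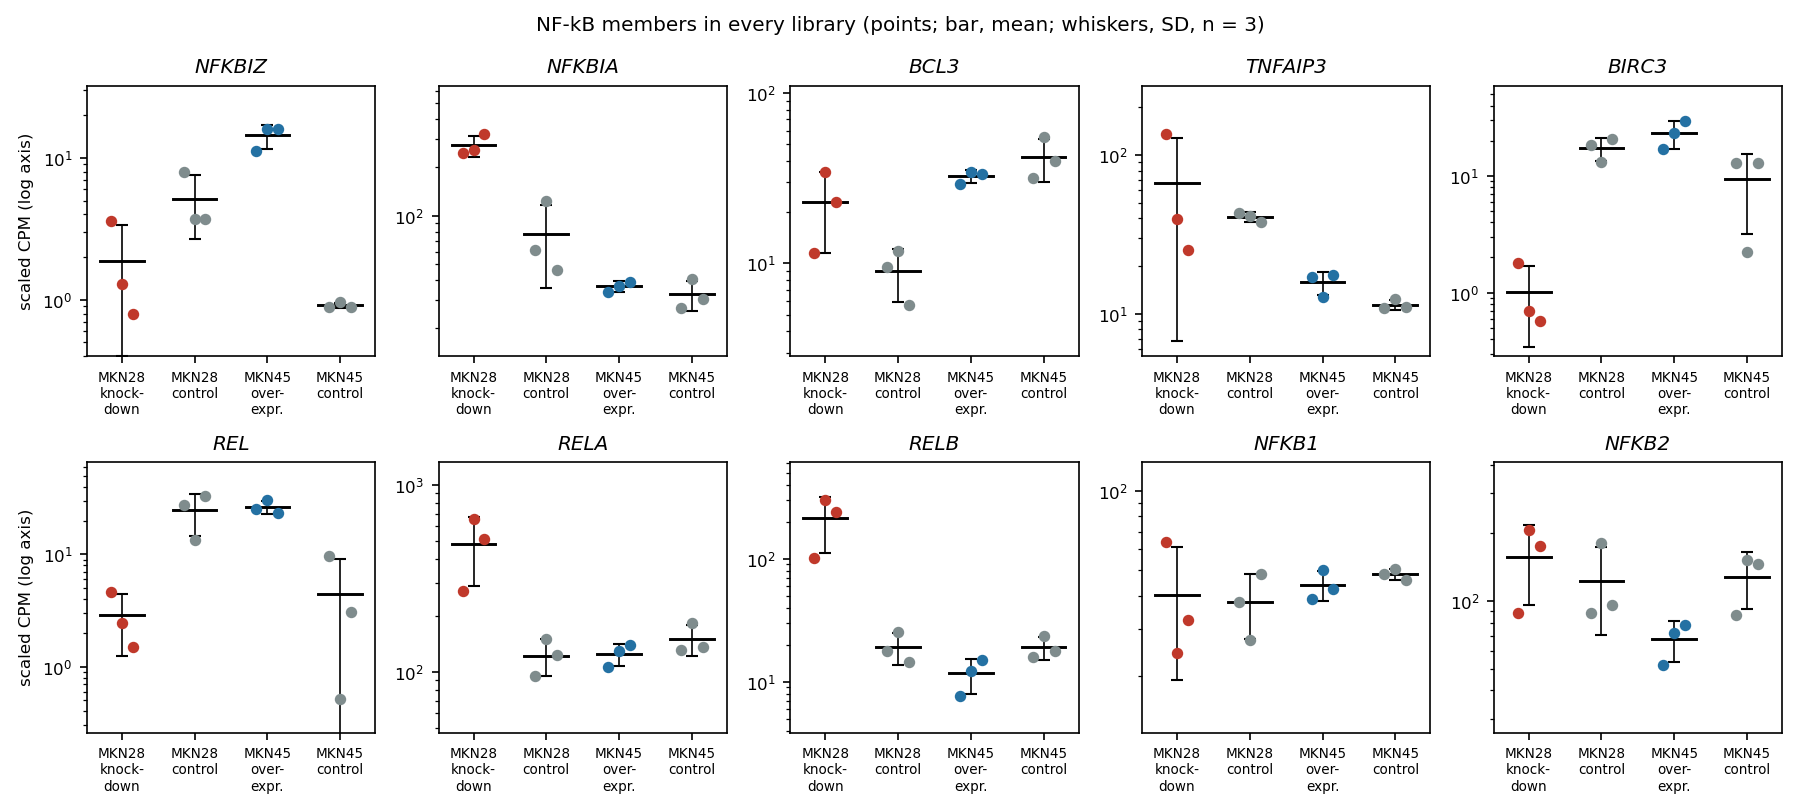
Level of each member in every library (points, scaled CPM on a log axis, each panel with its own range), with the group mean as a bar and the SD as whiskers (n = 3); a whisker that would pass 0 is drawn to the axis limit. NFKBIZ lay between 11.2 and 16.1 CPM in the overexpression and between 0.891 and 0.957 CPM in MKN45 controls, and BIRC3 between 0.571 and 1.80 CPM in the knockdown and between 13.1 and 20.6 CPM in MKN28 controls.

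The knockdown comparison asks which members changed in MKN28 cells with less ZNF165. RELA, RELB and NFKBIA rose, REL and BIRC3 fell, and the other 5 members did not pass the test. Thus 3 of 10 members rose (19.2% of all 14939 genes tested rose) and 2 of 10 fell (21.6% of all genes). The rises came to 1 without MKN28 control replicate 1 or 3 and to 2 with library totals alone, and both shares lie near those of genes in general. The median log2 fold change of the members was 0.54, against −0.20 over all genes tested. With library totals alone the median of all genes was −0.92, a shift of the scale to which every member's value below is relative.

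Among the subunits, RELB had the largest log2 fold change, except with library totals alone, where REL exceeded it (−3.77 against 2.56). RELB had 102, 304 and 238 CPM in the knockdown, against 17.7, 25.5 and 14.6 CPM in MKN28 controls, an 11.1-fold rise (log2 fold change 3.48, SE 0.56, quasi-likelihood test in edgeR, adjusted p = 0.00370). The lowest knockdown library lay above the highest control. RELA, the transactivating subunit of the classical dimer, had 272, 656 and 512 CPM in the knockdown, against 94.7, 149 and 123 CPM in MKN28 controls, a 3.93-fold rise (1.97, SE 0.49, adjusted p = 0.0110). Here too the groups did not overlap, and knockdown replicate 1 was the lowest of its group for RELA and RELB alike.

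REL moved the other way, with 4.62, 2.47 and 1.49 CPM in the knockdown, against 27.6, 13.5 and 32.9 CPM in MKN28 controls. The counts were 72, 25 and 13 in the knockdown and 669, 318 and 761 in the controls, and the fitted fall was 8.53-fold (log2 fold change −3.09, SE 0.64, quasi-likelihood test in edgeR, adjusted p = 0.00566). REL overlaps a non-coding gene on its own strand, AC010733.2 (5 to 199 counts per library), and reads in the overlap cannot be told apart.

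The precursor subunits did not pass the test. NFKB1 had 63.8, 24.4 and 32.3 CPM in the knockdown, against 38.1, 27.4 and 48.6 CPM in MKN28 controls (log2 fold change 0.08, SE 0.51, quasi-likelihood test in edgeR, adjusted p = 0.912). NFKB2 had 88.6, 206 and 176 CPM in the knockdown, against 88.7, 181 and 96.3 CPM in MKN28 controls (0.36, SE 0.50, adjusted p = 0.582). The groups overlapped for both genes, and both values turned negative with library totals alone (−0.57 and −0.52).

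Of the IkB proteins, NFKBIA rose while the nuclear ones did not pass. NFKBIA had 244, 258 and 321 CPM in the knockdown, against 61.0, 123 and 45.8 CPM in MKN28 controls, a 3.58-fold rise without overlap (log2 fold change 1.84, SE 0.50, quasi-likelihood test in edgeR, adjusted p = 0.0155). NFKBIZ had 3.59, 1.28 and 0.800 CPM in the knockdown, against 8.01, 3.73 and 3.72 CPM in MKN28 controls (−1.41, SE 0.68, adjusted p = 0.117). All 3 knockdown libraries of NFKBIZ lay below all controls, on 56, 13 and 7 counts. BCL3 had 11.5, 34.5 and 23.1 CPM in the knockdown, against 9.58, 11.9 and 5.71 CPM in MKN28 controls (1.34, SE 0.57, adjusted p = 0.0823), and the groups overlapped.

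The feedback proteins differed from each other. BIRC3 had 1.80, 0.691 and 0.571 CPM in the knockdown, against 18.4, 13.1 and 20.6 CPM in MKN28 controls. Its counts were 28, 7 and 5 in the knockdown and 446, 309 and 477 in the controls, a fitted fall of 16.5-fold (log2 fold change −4.04, SE 0.65, quasi-likelihood test in edgeR, adjusted p = 0.00370). Its log2 fold change was the largest of the 10 members in size, except with the length and GC trend removed, where RELB exceeded it (2.41 against −1.75). TNFAIP3 had 136, 39.7 and 25.4 CPM in the knockdown, against 43.3, 41.2 and 37.8 CPM in MKN28 controls (0.72, SE 0.62, adjusted p = 0.368). Knockdown replicate 1 was above every control, replicate 2 inside their range and replicate 3 below it. An antisense gene, AL357060.1 (0 to 32 counts), overlaps TNFAIP3, and with the strand setting unknown their reads cannot be told apart.

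Knockdown replicate 1 decided several of these values. Without it NFKBIZ passed as a fall (log2 fold change −2.17, adjusted p = 0.00761), BCL3 passed as a rise (1.78, adjusted p = 0.00228) and TNFAIP3 stood at −0.21 (adjusted p = 0.628, quasi-likelihood test in edgeR). With replicate 1 as the lone knockdown library, taken to vary like the controls, TNFAIP3 passed as a rise (1.77, adjusted p = 0.0164) and RELA did not pass (1.18, adjusted p = 0.0822). REL, RELB, BIRC3 and NFKBIA were called in the same direction with replicate 1 alone and without it. RELA and NFKBIA rested on the controls: without MKN28 control replicate 1 their adjusted p were 0.0757 and 0.0925, and without control replicate 3 they were 0.0564 and 0.0874. NFKBIA also missed the threshold without knockdown replicate 3 (adjusted p = 0.0516) and with library totals alone (1.07, adjusted p = 0.101). NFKBIZ and BCL3 also depended on the choice of fit. With every library kept, BCL3 passed as a rise by DESeq2 (1.53, adjusted p = 0.0231). In the fit of all 12 libraries BCL3 (1.385, adjusted p = 0.0191) and NFKBIZ (−1.36, adjusted p = 0.0377) both passed. Of the 14 alternatives tried, NFKBIZ was called in 2 and BCL3 in 3, while RELB and BIRC3 were called in each.

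Transcript length and base composition moved with the knockdown. Over the 16948 genes with an annotated length that passed the filter on low counts in either arm, the rank correlation of level with transcript length was 0.0488, −0.0348 and −0.0403 in the knockdown libraries and 0.305, 0.226 and 0.307 in MKN28 controls, and that with GC content was 0.0609, 0.339 and 0.333 in the knockdown and −0.0553, 0.0883 and −0.102 in the controls. The members that fell have long transcripts poor in GC, 11255 bases and 38.7% for REL and 5197 bases and 34.8% for BIRC3. Those that rose have shorter and richer ones, 2294 bases and 65.4% for RELB, 3183 bases and 57.1% for RELA and 1558 bases and 53.1% for NFKBIA. Over the 10 members, which share the same libraries, the log2 fold change correlated with length at rho −0.81 and with GC content at 0.81, against −0.54 and 0.53 over 14864 genes. With this trend removed from each library REL was no longer called (its log2 fold change being −0.08 with an adjusted p = 0.859, quasi-likelihood test in edgeR), and TNFAIP3 passed as a rise (1.50, adjusted p = 0.0189). BIRC3 (−1.75, adjusted p = 0.00571), RELB (2.41, adjusted p = 0.000683), RELA (1.46, adjusted p = 0.00285) and NFKBIA (0.98, adjusted p = 0.0318) were still called, with smaller values.

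**Figure D2:**
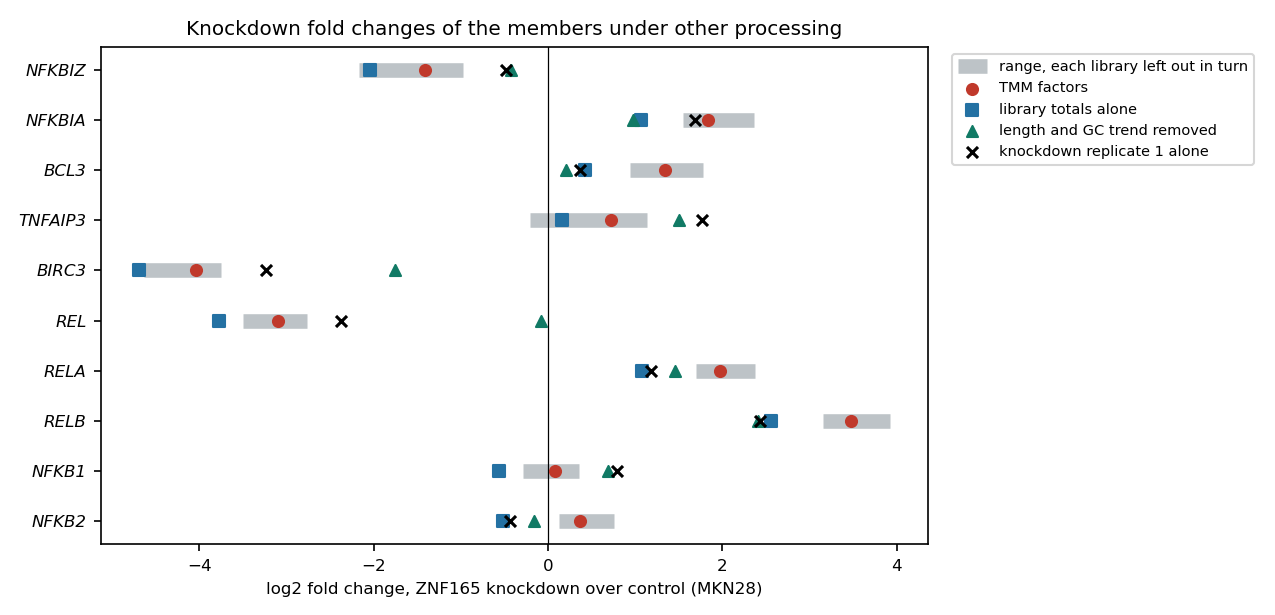
Log2 fold change of each member, knockdown over control in MKN28, with TMM factors (red circles), with library totals alone (blue squares), with the length and GC trend removed (green triangles) and with replicate 1 as the only knockdown library (crosses); grey bars span the fits that leave out each library in turn. NFKB1, NFKB2 and TNFAIP3 changed side of 0, with TNFAIP3 ranging from −0.21 to 1.77. The other members kept their side throughout, though REL moved to −0.08 with the trend removed.

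Set against each other per length, the subunits also changed in make-up. Counts were divided by the length of the longest basic coding transcript of each gene, and each subunit was given as a share of the sum over the 5 subunits, a quantity that does not depend on the scaling between libraries. RELB took 30.2 ± 3.74% of the sum in the knockdown and 8.95 ± 1.54% in MKN28 controls (SD, n = 3 each), with 25.9% in the lowest knockdown library and 10.2% in the highest control. RELA took 50.1 ± 0.712% in the knockdown and 40.9 ± 2.49% in the controls. NFKB2 took 15.3 ± 0.518% in the knockdown and 37.1 ± 6.62% in the controls, and REL took 0.111 ± 0.111% in the knockdown and 2.53 ± 1.32% in the controls. The groups did not overlap for these 4 shares, whereas NFKB1 overlapped, at 4.33 ± 4.14% in the knockdown and 10.5 ± 4.27% in the controls. The ratio of RELB to RELA per length was 0.521, 0.643 and 0.645 in the knockdown libraries, against 0.259, 0.237 and 0.166 in MKN28 controls. The shares of a library are parts of the same sum, so a larger share of one subunit lowers those of the others. NFKB2 itself had overlapping groups and a log2 fold change of 0.36 in the knockdown, despite its lower share. Shares were not tested, and the part of the length and GC trend in them was not tested.

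**Figure D3:**
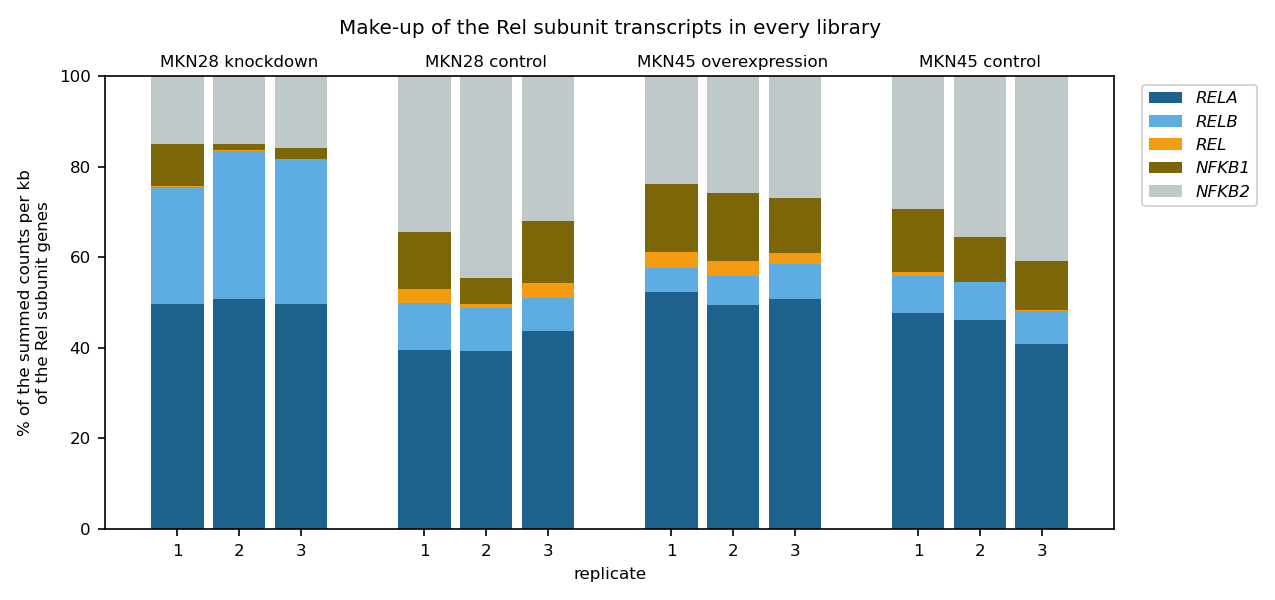
Share of each subunit gene in the summed counts per kilobase of RELA, RELB, REL, NFKB1 and NFKB2 (% of the sum), 1 bar per library. RELB took 25.9 to 32.7% of the sum in the knockdown and 7.26 to 10.2% in MKN28 controls, and NFKB2 23.8 to 26.8% in the overexpression and 29.4 to 40.8% in MKN45 controls.

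Per length, scaled over all 12 libraries, NFKBIA and RELA led the members in the knockdown at 196 ± 32.1 and 166 ± 62.8 CPM per kilobase, ahead of RELB at 103 ± 46.9. In MKN28 controls the leaders were NFKBIA at 56.8 ± 32.4, RELA at 43.9 ± 11.0 and NFKB2 at 41.1 ± 18.8 CPM per kilobase. In MKN28 controls the libraries of these 3 genes overlapped. In the knockdown those of RELA overlapped both others, while every NFKBIA library (176 to 233 CPM per kilobase) lay above every RELB library (50.6 to 141 CPM per kilobase). NFKBIZ was the lowest of the 10 in MKN28 controls, at 1.49 ± 0.701 CPM per kilobase with libraries overlapping those of REL, and in the knockdown the lowest were NFKBIZ, REL and BIRC3, at 0.540, 0.283 and 0.220 CPM per kilobase, with overlapping libraries. In the overexpression RELA led at 34.2 ± 4.20 CPM per kilobase, above all libraries of NFKBIA at 20.5 ± 1.34 and of NFKB2 at 17.3 ± 3.38. In MKN45 controls RELA had 42.8 ± 9.93 and NFKB2 33.9 ± 9.94 CPM per kilobase, with overlap. NFKBIZ was the lowest in MKN45 controls, at 0.211 ± 0.0169 CPM per kilobase, inside the range of REL (0.0431 to 0.770), and had rank 8 in the overexpression at 3.21 ± 0.594 CPM per kilobase, overlapping its neighbours BIRC3 at 3.89 ± 0.991 and TNFAIP3 at 2.92 ± 0.462.

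In MKN45 cells overexpressing ZNF165 the members with the highest folds were NFKBIZ, REL and BIRC3. NFKBIZ had 11.2, 15.9 and 16.1 CPM in the overexpression, against 0.893, 0.957 and 0.891 CPM in MKN45 controls, on 221, 326 and 286 counts against 16, 13 and 14. The fitted difference was 15.7-fold (log2 fold change 3.97, SE 0.30), and every overexpression library lay far above every control.

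REL had 25.6, 30.3 and 23.2 CPM in the overexpression, against 9.66, 0.516 and 3.05 CPM in MKN45 controls (log2 fold change 2.56, SE 0.72). BIRC3 had 17.0, 23.1 and 29.4 CPM in the overexpression, against 12.9, 2.21 and 12.8 CPM in MKN45 controls (1.31, SE 0.54). Control replicate 2 was the lowest library for both genes, and without it the log2 fold changes were 2.04 for REL and 0.84 for BIRC3, while without control replicate 1 that of REL was 3.84. TNFAIP3 had 17.0, 12.9 and 17.6 CPM in the overexpression, against 10.8, 12.4 and 11.0 CPM in MKN45 controls (0.47, SE 0.24). For these genes too the groups did not overlap, though for TNFAIP3 only by a small gap.

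NFKB2 and RELB, the subunits of the alternative pathway, lay lower. NFKB2 had 51.9, 72.3 and 78.3 CPM in the overexpression, against 86.4, 151 and 146 CPM in MKN45 controls (log2 fold change −0.92, SE 0.28). RELB had 7.71, 12.3 and 15.1 CPM in the overexpression, against 16.0, 23.7 and 17.7 CPM in MKN45 controls (−0.71, SE 0.30). Its groups were apart only by a small gap, 15.1 against 16.0 CPM. In all, 4 of 10 members had all overexpression libraries above all controls (19.4% of all 15833 genes did) and 2 of 10 had all below (18.7% of all genes), and since the set was chosen on this contrast nothing is read from these counts. NFKBIA, NFKB1, RELA and BCL3 overlapped, with log2 fold changes of 0.16, −0.14, −0.27 and −0.38. The median over the members was 0.01, against −0.00 over all genes. In the make-up of the subunits per length, NFKB2 took 25.5 ± 1.51% in the overexpression and 35.3 ± 5.69% in MKN45 controls, and REL took 3.08 ± 0.602% in the overexpression and 0.431 ± 0.504% in MKN45 controls.

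**Figure D4:**
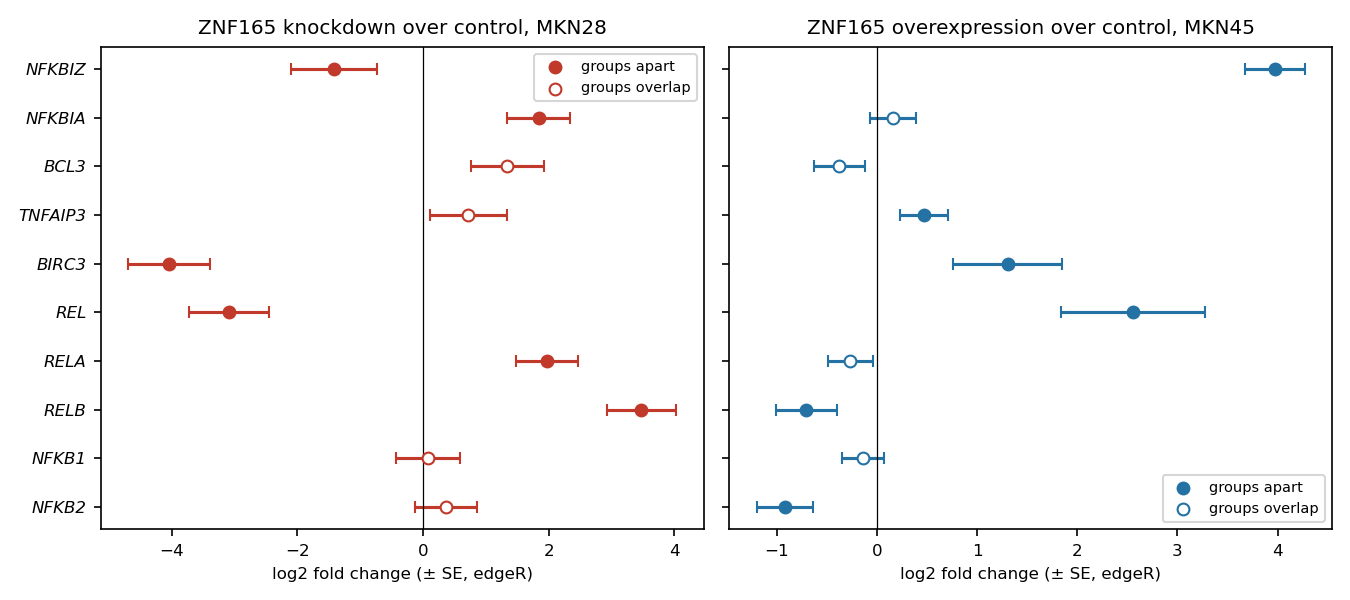
Log2 fold change of each member (± SE, edgeR) for the knockdown over control in MKN28 (left) and the overexpression over control in MKN45 (right), on axes of different range; filled points mark members whose libraries did not overlap between groups. REL was at −3.09 in the knockdown and 2.56 in the overexpression, BIRC3 at −4.04 in the knockdown and 1.31 in the overexpression, and RELB at 3.48 in the knockdown and −0.71 in the overexpression.

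Set side by side, the arms share no library. REL, BIRC3 and NFKBIZ had negative log2 fold changes in the knockdown (−3.09, −4.04 and −1.41, the value of NFKBIZ not past the threshold) and positive ones in the overexpression (2.56, 1.31 and 3.97). RELB had the opposite pair of signs (3.48 in the knockdown and −0.71 in the overexpression). So had RELA (1.97 and −0.27), BCL3 (1.34 and −0.38), NFKB2 (0.36 and −0.92) and NFKB1 (0.08 and −0.14). NFKBIA (1.84 and 0.16) and TNFAIP3 (0.72 and 0.47) were positive in both arms. The knockdown values of BCL3, NFKB2, NFKB1 and TNFAIP3 were not past the threshold, and whether the arms differ was not tested. The overexpression libraries correlated with transcript length at rho 0.314 to 0.323 and with GC content at −0.107 to −0.0786. In MKN45 controls the length values were 0.276, 0.141 and 0.229 and the GC values −0.0563, 0.155 and −0.0348, with replicate 2 apart from the others. Over the 10 members the overexpression fold changes correlated with length at rho 0.60 and with GC content at −0.89, against 0.40 and −0.45 over 15742 genes. With the trend removed the overexpression values were 3.77 for NFKBIZ, 1.92 for REL, 0.67 for BIRC3, −0.40 for RELB and −0.75 for NFKB2. The knockdown values with the trend removed were −0.08 for REL, −1.75 for BIRC3, 2.41 for RELB and −0.16 for NFKB2. That of NFKBIZ was −0.42 (adjusted p = 0.502, quasi-likelihood test in edgeR). When knockdown replicates 2 and 3 were both dropped, NFKBIZ stood at −0.49 in the knockdown arm.

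Genes whose pattern over the 12 libraries was most like that of NFKBIZ were named by Pearson's r of log2(CPM + 1), among genes with a mean of at least 5 CPM. They were CCNL1, a cyclin that takes part in splicing (r = 0.927), the pseudogene PKD1P5 (0.870), OSBPL7, a lipid-binding protein (0.861), MIR34AHG, the host transcript of a microRNA (0.856), and KLF10, a zinc-finger factor induced by TGF-beta (0.856). CCNL1 averaged 162 CPM in the overexpression and 28.9 CPM in MKN45 controls, and 38.1 CPM in the knockdown and 62.1 CPM in MKN28 controls. PKD1P5 is a near copy of part of PKD1, and reads could have been split between them. Of the other members REL had the highest r with NFKBIZ (0.816), followed by BIRC3 (0.652), and NFKB2 had the lowest (−0.629). These values describe 12 libraries in 4 groups that differ in line and depth.

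Other genes of the pathway were grouped by role in 5 lists, which share NFKBIE, TNIP1 and TRAF1. Among inducible NF-kB targets 12 of 18 tested genes rose in the knockdown (66.7%, against 19.2% of all genes), 0 fell (21.6% of all genes did) and 6 did not pass, with a median log2 fold change of 1.94 against −0.20 over all genes. The list had 25 genes, 24 of them in the count table, and 18 passed the filter on low counts. A gene could pass that filter on its knockdown counts alone, and with no filter 12 of 24 targets rose. The rises came to 3 without MKN28 control replicate 1 and 5 without control replicate 3. In these fits 2642 of 15276 and 3171 of 15427 genes passed in either direction. In the fit without knockdown replicate 1, where 10378 of 15758 genes passed, 1 target fell. CXCL3, a neutrophil attractant, averaged 8.93 ± 2.38 CPM in the knockdown and 0.509 ± 0.0831 CPM in MKN28 controls (4.11, SE 0.59, quasi-likelihood test in edgeR, adjusted p = 0.00367). BCL2A1, an anti-apoptotic BCL2 relative, had a log2 fold change of 3.98 on 88, 14 and 10 counts in the knockdown against 3, 9 and 0 in the controls, and MMP9, a matrix protease, one of 3.71. Of the targets that passed, CXCL8, another neutrophil attractant, had 2404 counts in knockdown replicate 1 but 165 and 61 in replicates 2 and 3, against 155, 184 and 156 in the controls, and is named after its values were seen. ICAM1 and PTGS2, further classical targets, had log2 fold changes of 0.13 and −0.26 (adjusted p = 0.870 and 0.774) and are likewise named after their values were seen.

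Other inhibitors gave 4 rises (30.8%, against 19.2% of all genes), 0 falls (21.6% of all genes fell) and 9 genes not past the threshold among 13 tested, with a median of 0.68. The absence of falls depended on the fit. By DESeq2 there were 4 falls (7289 of 14939 genes passed in either direction), and 4 in a fit of all 12 libraries (8734 of 17266). A replicate block gave 5 (6994 of 14939), and leaving out knockdown replicate 1 gave 6 (10378 of 15758). NFKBIE, the IkB epsilon protein, averaged 228 ± 114 CPM in the knockdown and 18.1 ± 4.90 CPM in MKN28 controls (log2 fold change 3.65, SE 0.57, quasi-likelihood test in edgeR, adjusted p = 0.00367). NFKBIB, the IkB beta protein, averaged 311 ± 118 CPM in the knockdown and 36.1 ± 13.2 CPM in the controls (3.11, SE 0.53, adjusted p = 0.00379). TNIP2, a partner of TNFAIP3, rose with a log2 fold change of 2.99.

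Kinases and adaptors gave 6 rises, 6 falls and 15 genes not past the threshold among 27 tested (median 0.23), 22.2% in each direction, near the 19.2% of all genes that rose and the 21.6% that fell. Rises numbered 0 without MKN28 control replicate 1 and 11 without knockdown replicate 1, and falls 2 and 11 in those fits. Over all genes 2642 of 15276 passed in the first of these fits, in either direction, and 10378 of 15758 in the second. With the length and GC trend removed there were 9 rises and 2 falls. IRAK1, a kinase below interleukin 1 and Toll-like receptors, rose with a log2 fold change of 2.41, SHARPIN, a subunit of the linear ubiquitin ligase, with 2.09, and TRAF1, an adaptor that binds BIRC3, with 1.95. CHUK, the IKK alpha kinase, fell by 3.02 on the log2 scale, on 182, 22 and 3 counts in the knockdown against 858, 563 and 1332 in the controls. TRAF5, a TNF receptor adaptor, fell by 2.79 and TAB3, which links ubiquitin chains to the kinase TAK1, by 2.52. For the genes named in this list the adjusted p was at least 0.00777 and at most 0.0307 (quasi-likelihood test in edgeR).

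Of 10 receptors tested 2 rose (19.2% of all genes did), 4 fell (21.6% of all genes did) and 4 did not pass (median 0.25). With 1 library left out the rises ranged from 1 to 5 (5 without knockdown replicate 1) and the falls from 3 to 4. Over all genes the number that passed in these fits ranged from 2642 to 10378 (10378 without knockdown replicate 1). With the length and GC trend removed there were 4 rises and 2 falls. With no filter on low counts 2 of 14 receptors rose and 4 fell. TNFRSF12A, the receptor for TWEAK, averaged 1155 ± 615 CPM in the knockdown and 149 ± 42.2 CPM in MKN28 controls (log2 fold change 2.95, SE 0.58, quasi-likelihood test in edgeR, adjusted p = 0.00503), and IL17RC, a subunit of the interleukin 17 receptor, rose with 1.96. TLR5, the flagellin receptor, had 1, 0 and 0 counts in the knockdown against 42, 53 and 34 in the controls, so its fitted log2 fold change of −5.70 is not exact. IL1R1, the interleukin 1 receptor, had 30, 6 and 0 counts in the knockdown against 415, 254 and 334 in the controls (−3.98), and TLR3, a sensor of double-stranded RNA, had 10, 0 and 1 in the knockdown against 72, 71 and 141 in the controls (−3.80). Of 5 ligands tested 2 rose (19.2% of all genes did), 0 fell (21.6%) and 3 did not pass (median 0.60), and 0 rose without knockdown replicate 2, without replicate 3, without MKN28 control replicate 1 or with library totals alone. The list had 11 ligands, and only these 5 passed the filter on low counts. A gene could pass it on its knockdown counts alone, and with no filter 2 of 9 ligands rose. LTA, a TNF relative made by lymphocytes, had 10, 19 and 17 counts in the knockdown against 3, 4 and 9 in the controls (log2 fold change 2.65), and TNFSF12, which encodes TWEAK, had 15, 29 and 25 in the knockdown against 6, 23 and 3 in the controls (2.27).

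Over the lists, 33 of 70 distinct genes passed in the knockdown (47.1%, against 40.8% of all genes in either direction), 23 of them as rises (32.9%, against 19.2%). Without knockdown replicate 1, 56 of 72 list genes passed, against 10378 of all 15758 genes. Without replicate 2 it was 19 of 71 (4249 of 15728 over all genes). Without MKN28 control replicate 1 it was 11 of 70 (2642 of 15276), and without control replicate 3 it was 15 of 73 (3171 of 15427). In these last 3 fits the list share lay near that of all genes. With library totals alone 19 of 70 list genes passed, against 5215 of all 14939 genes. Of these 19, 8 were rises, and 4 targets rose in place of 12. With the length and GC trend removed 30 of the 34 that passed were rises, and 13 targets rose. In the overexpression the medians of the 5 lists lay between −0.58 and 0.17, against −0.00 over all genes, given as a description.

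**Figure D5:**
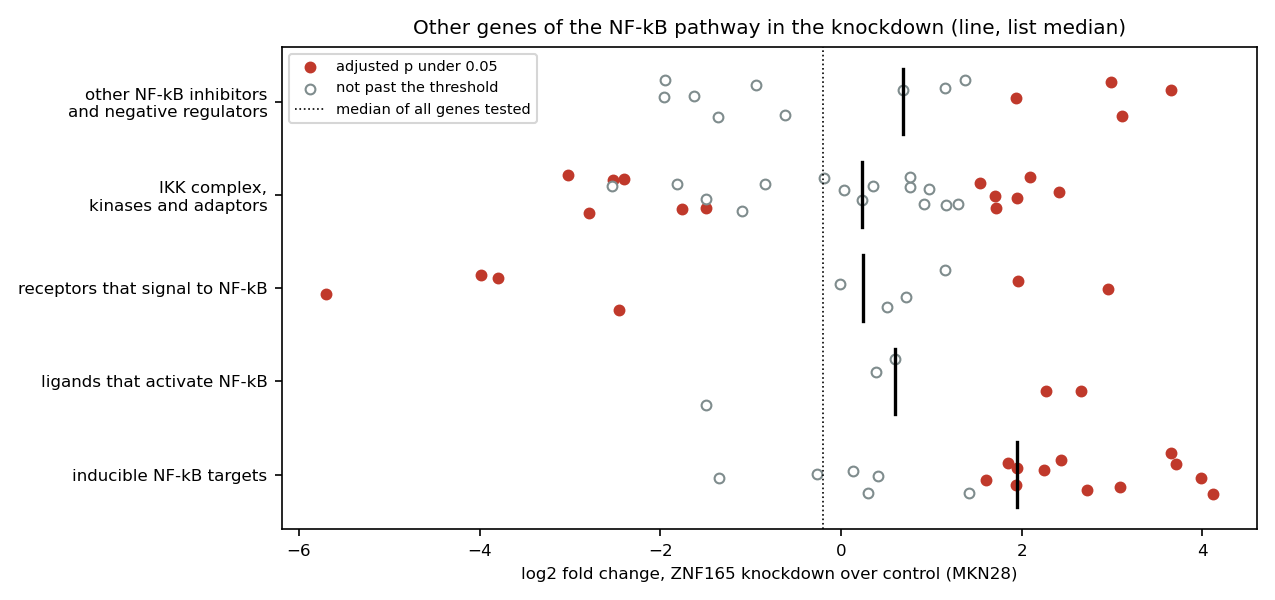
Log2 fold change, knockdown over control in MKN28, of the tested genes of each list (points; filled, adjusted p under 0.05; open, not past the threshold), with the list median as a bar and the median of all genes as a dotted line at −0.20. Inducible targets had a median of 1.94 with no filled point below 0, while kinases and adaptors had filled points on both sides.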

How the data were processed

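The values are read counts as the authors deposited them, whole numbers in a table of genes by libraries, per the file headers. HISAT2 and StringTie were used per the submitters' processing notes. Not given in the sources used here are the counting step, the build, the annotation release and whether strand was used. All 12 columns were used. Positions, lengths and GC content came from GENCODE 29, and symbols from a gene name table (49659 of 50868 identifiers matched).

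Genes were kept by filterByExpr (minimum count 10, minimum total 15), scaled by TMM and tested by edgeR's quasi-likelihood test (edgeR 4.0.16, R 4.3.3), with Benjamini-Hochberg adjusted p under 0.05 over all genes of each fit. All 10 members passed the filter in each comparison. CPM values were scaled within their comparison. Those of the markers, the levels per kilobase and the genes like NFKBIZ were scaled over all 12 libraries instead. Errors are SDs over 3 libraries. The knockdown test was also run on counts simulated from the MKN28 controls alone. That check does not cover the spread of the knockdown libraries or the length and GC trend. Alternatives were DESeq2 1.42.0, library totals, upper-quartile factors, no filter, offsets for a smooth length and GC trend, the replicate number as a block, a fit of all 12 libraries and libraries left out.

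The members and lists were chosen with earlier results of these data known. Named were all members, up to 3 rises and 3 falls with the largest changes per list, and the 5 genes most like NFKBIZ. Replicate libraries differed by far more than counting error (chi-square per degree of freedom of 19.5 to 417), so floors and depths cover counting error only. Of the listed genes, the symbol SOD2 was not matched and is not analysed here.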

Additional observations from a re-analysis of the deposited data

How the results depend on the processing

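Of the alternatives for single members in the knockdown, 7 gained a call, 8 lost one and 8 changed sign without a call on either side, while the others kept direction and side of the threshold. Those that changed sign were NFKB1 with library totals alone (−0.57), with a replicate block (−0.0053), without knockdown replicate 1 (−0.29) and without control replicate 2 (−0.10), NFKB2 with the length and GC trend removed (−0.16), with library totals alone (−0.52) and without knockdown replicates 2 and 3 (−0.44), and TNFAIP3 without knockdown replicate 1 (−0.21). With a library left out NFKB1 ranged from −0.29 to 0.36 and TNFAIP3 from −0.21 to 1.13. In the lines comparison 109 kept both, 2 gained a call, both for BIRC3, and 9 changed sign without a call: NFKB1 with the length and GC trend removed (−0.14), with library totals alone (−0.13) and without replicate 2 of MKN28 (−0.11) or MKN45 controls (−0.05), NFKB2 without MKN28 control replicate 2 (0.20), and RELA with upper-quartile factors (0.10), without MKN28 control replicate 2 (0.20) and without MKN45 control replicate 1 (0.08) or 3 (0.06). With a library left out NFKB1 ranged from −0.11 to 0.20, NFKB2 from −0.47 to 0.20 and RELA from −0.25 to 0.20. No called value changed sign. The number of members called in the knockdown, 5, ranged from 3 to 7 over libraries left out in turn, being 3 without MKN28 control replicate 1 or 3. The 33 pathway genes called ranged from 11 (without MKN28 control replicate 1) to 56 (without knockdown replicate 1) and were 19 with library totals alone, and 13 with knockdown replicates 2 and 3 left out. Over all genes, 6092 were called in the knockdown. The alternatives gave 2642 (without MKN28 control replicate 1) to 10378 (without knockdown replicate 1), and library totals alone gave 5215. The cause was not tested.

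Deviations of libraries with the same replicate number correlated at 0.312, 0.479 and −0.407 in the knockdown arm and −0.0784, −0.0607 and 0.101 in the overexpression arm. Those of libraries with unlike numbers correlated at −0.592 to 0.509 in the knockdown arm and −0.175 to 0.170 in the overexpression arm. Deviations within a group sum to 0, so these values cannot tell whether the shared numbers pair the libraries. With the replicate number as a block 5 members were called in the knockdown and 45 pathway genes were. In the overexpression 6 members had groups without overlap (6037 of all 15833 genes did), which a block cannot alter. With the length and GC trend removed 4 members had (5806 of 15742 genes), and with upper-quartile factors 5 had (6124 of 15833). With a library left out 6 to 8 members had, against 7082 to 8452 genes. The 8 came without MKN45 control replicate 1, where 8452 of 16134 genes had. Few counts limit NFKBIZ, REL and BIRC3 in the knockdown libraries and NFKBIZ in MKN45 controls.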
